A study of Homo sapiens with 2 samples.

Results

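The zinc finger genes of chromosome 19 are described here in an ATAC-seq study of lactate. They were chosen by symbol and position alone, as the protein-coding RefSeq genes of chromosome 19 (build hg38) whose symbol is ZNF followed by a number and an optional letter. This rule gave 246 of the 19974 protein-coding genes on chromosomes 1 to 22 and X. CAL27 is an established cell line from an oral squamous cell carcinoma, and ATAC-seq marks accessible DNA by letting Tn5 transposase cut it and attach adapters. One library came from CAL27 cells with no treatment and 1 from CAL27 cells kept in 10 mM lactate for 24 h, so no difference has a replicate check and none was tested. Every value below is therefore a property of these 2 libraries, and what lactate does cannot be told apart from what distinguishes any pair of cultures.

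C2H2 zinc finger proteins bind DNA through repeated fingers, each folded around a zinc ion held by cysteines and histidines. Most of those encoded on chromosome 19 carry a KRAB domain, which recruits TRIM28 (KAP1) and through it the H3K9 methyltransferase SETDB1 and HP1 proteins, and many of them silence transposable elements. The genes arose by tandem duplication and lie in clusters, their promoters are often CpG islands, and the parts of the genes that encode the fingers are known to carry H3K9me3 in many cell types. Methylation of the promoters of several of these genes is known in carcinomas.

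The clusters are the frame of what follows. Genes separated by at most 500 kb were chained, and 11 chains of 3 or more genes held 235 of the 246. They are numbered from the short-arm end. The other 11 genes stood apart from every cluster. A region is an interval that the authors' peak caller listed as accessible, a gene end means the 1 kb on both sides of either annotated limit of a gene, and a level is the summit pileup (how many extended tags cover the highest point of a region) per 1000000 total tags of the library, written per M. A gene is called open where an end carried a region, and without a region where the list gave none, which is a statement on the list and not on the DNA.

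The promoters that carry the main observations are shown first, 300 bases each, from 250 before to 50 after the annotated start, from RefSeq on GRCh38.p14. CG dinucleotides, the sites of DNA methylation, are in capitals, so that the density of capitals shows how CpG-rich each promoter is. Of the 246 genes, 216 had an entry in the promoter table, and where a gene had several starts the one nearest its outer end was used. For 37 of the 216 that start is not the outer end of the gene.

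The following 4 had a listed region over the promoter. ZNF460 (chr19:57279732-57280031, plus strand) is among the most accessible of the genes in the untreated library. ZNF556 (chr19:2867085-2867384, plus strand) had the highest and ZNF546 (chr19:39996810-39997109, plus strand) the lowest lactate level relative to the untreated one. ZNF426 (chr19:9538596-9538895, minus strand) had a region in the lactate library alone.
ZNF460: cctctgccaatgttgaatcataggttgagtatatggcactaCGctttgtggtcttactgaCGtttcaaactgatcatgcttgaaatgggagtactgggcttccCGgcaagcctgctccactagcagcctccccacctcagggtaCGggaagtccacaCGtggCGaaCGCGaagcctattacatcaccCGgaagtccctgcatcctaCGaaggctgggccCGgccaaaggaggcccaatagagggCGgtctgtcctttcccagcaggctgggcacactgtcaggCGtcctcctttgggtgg
ZNF556: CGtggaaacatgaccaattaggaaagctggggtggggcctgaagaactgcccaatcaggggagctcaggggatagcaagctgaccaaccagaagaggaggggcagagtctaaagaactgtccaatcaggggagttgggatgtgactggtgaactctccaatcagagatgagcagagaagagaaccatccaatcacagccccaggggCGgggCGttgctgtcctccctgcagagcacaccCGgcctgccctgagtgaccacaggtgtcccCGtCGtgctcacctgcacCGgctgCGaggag
ZNF546: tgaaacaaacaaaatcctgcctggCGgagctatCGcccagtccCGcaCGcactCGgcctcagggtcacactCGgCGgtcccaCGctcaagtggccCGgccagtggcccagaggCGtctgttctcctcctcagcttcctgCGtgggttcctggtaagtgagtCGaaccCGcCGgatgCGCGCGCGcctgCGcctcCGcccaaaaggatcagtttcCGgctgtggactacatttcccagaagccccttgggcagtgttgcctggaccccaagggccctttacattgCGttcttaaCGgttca
ZNF426: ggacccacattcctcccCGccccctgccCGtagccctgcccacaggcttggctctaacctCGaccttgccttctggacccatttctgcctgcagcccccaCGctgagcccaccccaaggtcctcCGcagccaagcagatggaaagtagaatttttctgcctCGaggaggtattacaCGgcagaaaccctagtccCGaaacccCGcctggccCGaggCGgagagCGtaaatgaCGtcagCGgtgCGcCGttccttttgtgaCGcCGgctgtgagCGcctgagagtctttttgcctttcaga

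The following 3 had no region at either end in either library, and each has the highest CpG ratio among such promoters of its cluster, a choice made after the values had been seen. They are ZNF726 of cluster 4 (chr19:23914636-23914935, plus strand), ZNF566 of cluster 6 (chr19:36489512-36489811, minus strand) and ZNF528 of cluster 9 (chr19:52397599-52397898, plus strand).
ZNF726: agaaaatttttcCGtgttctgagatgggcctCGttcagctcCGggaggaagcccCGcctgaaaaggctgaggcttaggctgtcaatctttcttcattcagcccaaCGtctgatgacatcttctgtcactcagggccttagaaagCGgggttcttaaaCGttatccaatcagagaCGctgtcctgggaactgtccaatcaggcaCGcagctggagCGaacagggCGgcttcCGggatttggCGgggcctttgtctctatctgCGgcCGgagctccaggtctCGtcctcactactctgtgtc
ZNF566: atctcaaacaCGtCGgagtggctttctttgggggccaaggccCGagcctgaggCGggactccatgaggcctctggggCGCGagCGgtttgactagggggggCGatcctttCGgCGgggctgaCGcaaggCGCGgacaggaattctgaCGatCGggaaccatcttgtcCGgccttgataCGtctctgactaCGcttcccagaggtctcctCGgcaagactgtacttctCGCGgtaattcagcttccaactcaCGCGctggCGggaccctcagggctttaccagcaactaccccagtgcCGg
ZNF528: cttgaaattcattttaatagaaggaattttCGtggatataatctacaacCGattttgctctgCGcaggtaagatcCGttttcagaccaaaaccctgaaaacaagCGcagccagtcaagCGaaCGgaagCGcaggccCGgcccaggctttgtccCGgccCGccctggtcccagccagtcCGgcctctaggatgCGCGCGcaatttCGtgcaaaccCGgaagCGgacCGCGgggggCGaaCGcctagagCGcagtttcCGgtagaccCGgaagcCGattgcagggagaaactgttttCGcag

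ZNF528 holds 27 CG dinucleotides and ZNF566 holds 25, against 13 in ZNF460 and 8 in ZNF556, which were open in both libraries. ZNF546 holds 23, ZNF426 holds 19 and ZNF726 holds 16, so the counts of the open and the unlisted promoters shown here overlap.

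Zinc finger genes of chromosome 19 were without an accessible end more often than other genes. Of the 246, 126 (51.2%, exact 95% binomial interval 44.8 to 57.6) had a region at neither end in either library, against 31.3% of all protein-coding genes. The share was 32.2% among the 1205 other coding genes of chromosome 19 and 19.8% (15.1 to 25.1) among the 263 ZNF genes of other chromosomes. All intervals given cover counting error only, and neighbouring genes are not independent draws. Both lists held a region at 111 of the 246 (45.1%), against 61.8% of all coding genes. The lists need not hold the same region for this, and at ZNF507 and ZNF814 their regions did not overlap. The untreated list begins at a pileup of 6 tags (0.329 per M) and the lactate list at 5 (0.325 per M), so a gene end without a region may still hold tags below what the caller lists.

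The missing regions were not spread evenly over the chromosome. In clusters 4, 6 and 9, 81 of 102 genes (79.4%) had no region, against 45 of the other 144 (31.2%), a grouping made after the values had been seen. Cluster 4 (chr19:19668153-24129968), next to the centromere on the short arm, had none at 30 of 37 genes. Those 30 include ZNF91 and ZNF93, known repressors of SVA and L1 retrotransposons. Cluster 6 (chr19:36182060-37779586) had none at 20 of 26 genes. Cluster 9 (chr19:51571283-53580269) had none at 31 of 39, among them ZNF350, a DNA-binding partner of BRCA1 also called ZBRK1, and ZNF331.

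Elsewhere most genes were open. In cluster 11 (chr19:57191500-58489533), the most distal of the long arm and the largest, 31 of 43 genes were open in both libraries and 10 in neither. In cluster 8 (chr19:43530835-44500522) the numbers were 17 and 5 of 23. All 5 genes of cluster 1 (ZNF554, ZNF555, ZNF556, ZNF57 and ZNF77) and all 3 of cluster 7 (ZNF546, ZNF780B and ZNF780A) were open in both. Clusters 3 and 10 lay between, with no region at 14 of 25 and at 8 of 16 genes, and cluster 2 had none at 3 of 13. In cluster 5 each state occurred, with ZNF181 open in both, a lactate-only region at ZNF792, an untreated-only one at ZNF302 and no region at the other 2 of its 5 genes, ZNF599 and ZNF30.

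**Figure D1:**
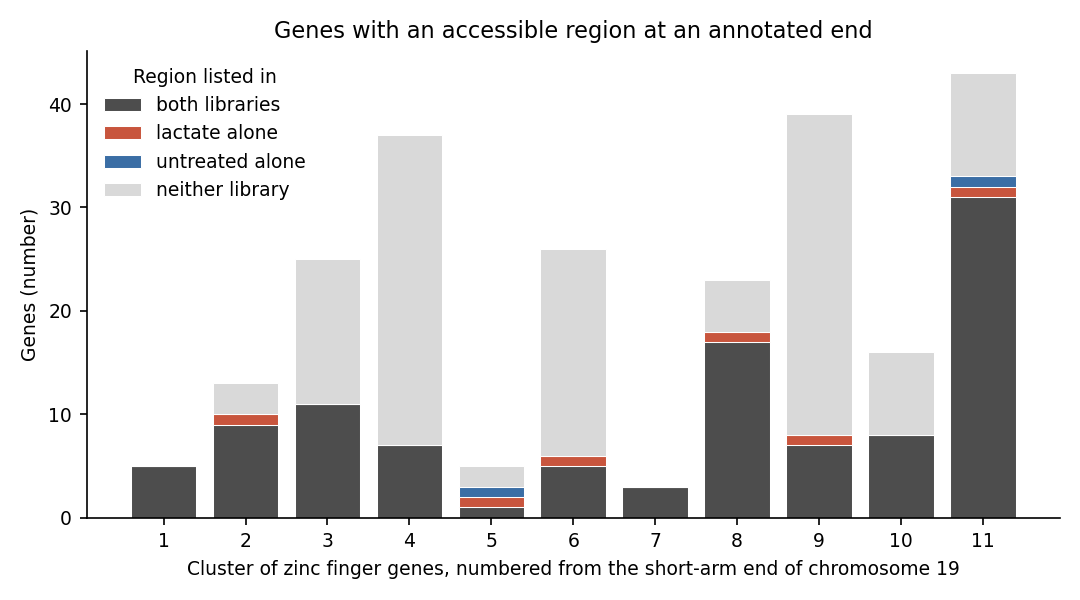
Number of zinc finger genes (vertical axis) in each of the 11 clusters (horizontal axis, from the short-arm end), divided by the libraries in which a region was listed at a gene end. Clusters 4, 6 and 9 consist mostly of genes with a region in neither library (30 of 37, 20 of 26 and 31 of 39), and cluster 11 mostly of genes with one in both (31 of 43).

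Neighbouring genes tended to be in the same state. Of 245 pairs of neighbours along the chromosome, 92 both had a region in at least 1 library, 99 both had none and 54 were mixed. The same count was not made for other genes. Neighbours that share a region, as ZNF490 with ZNF791 and ZNF324 with ZNF446, are alike by construction. The longest runs without a region were 23 genes from ZNF708 in cluster 4 to ZNF536 across the centromere, 22 genes from ZNF610 to ZNF525 within 1.06 Mb of cluster 9, and 13 genes from ZNF566 to ZNF585A within 0.728 Mb of cluster 6. The longest run with a region was 11 genes from ZNF426 to ZNF440, which passes from cluster 2 into cluster 3. The neighbours ZNF765 and ZNF761 stood open between that run of cluster 9 and the unlisted ZNF813 and ZNF331, at low levels (0.712 and 0.877 per M untreated, 0.909 and 1.62 lactate).

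Accessible regions of any kind were sparse in the same clusters. The count includes the regions at the gene ends, by which these clusters were picked, so part of the difference follows from that choice. Clusters 4, 6 and 9 held 10.1, 12.5 and 12.4 merged regions per Mb in the untreated library and 10.1, 11.9 and 16.9 in the lactate library. Chromosome 19 as a whole held 45.5 and 59.3 per Mb between its first and last coding gene. Clusters 8 and 11 stood near or above the chromosome in the untreated library, with 54.7 and 52.4. The coding genes of other names inside the spans were few. No region was listed for 1 of 2 of them in cluster 4, 4 of 4 in cluster 6 and 12 of 16 in cluster 9. The numbers elsewhere were 9 of 15 in cluster 2, 1 of 4 in cluster 3 and 0 of 1 in cluster 5. They were 4 of 10 in cluster 8, 18 of 26 in cluster 10 and 7 of 13 in cluster 11. Over all other genes of the chromosome the share was 32.2%. Genes of other names without a region thus also occurred outside clusters 4, 6 and 9, while the shares were highest in clusters 6 and 9.

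Some genes without a region are known for promoter methylation in carcinomas, and they were picked out here after their state was known. ZNF582, whose methylation is used as a marker in cervical and oral neoplasia, had no region at chr19:56382751-56393534, and its promoter held 30 CG dinucleotides. ZNF671, ZNF154 and ZNF132, which lie in the mostly open cluster 11, had none either. Genes known for such methylation that were open were not counted, so no share can be given. DNA methylation was not analysed here, and its part in the missing regions was not tested.

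Promoter composition differed little between the zinc finger genes with and without a region. The CpG ratio (CG dinucleotides observed over the number expected from the C and G content) had a median of 0.786 in the 98 promoters of genes open in both libraries and 0.743 in the 109 of genes open in neither. Their quartiles overlapped, at 0.663 to 0.907 and 0.556 to 0.850. Over all coding genes the medians were 0.833 with a region and 0.359 without. On the other chromosomes, ZNF genes without a region also kept a high CpG ratio, with a median of 0.762 over 38 promoters.

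Taking a CpG ratio of at least 0.6 as CpG-rich, 78 of 167 CpG-rich zinc finger promoters of chromosome 19 (46.7%, 39.0 to 54.6) belonged to genes without a region. Over all coding genes this was 15.1% of 10370, over ZNF genes of other chromosomes 13.4% of 172 (8.67 to 19.4), and over the other genes of chromosome 19 it was 13.0% of 575. With the 179 promoters whose listed start is the outer end of the gene, a choice made after seeing the data, the shares were 42.6% of 136 for the zinc finger genes and 13.0% of 9160 for all. Among CpG-poor promoters the shares were 63.3% for the zinc finger genes and 56.2% for all genes. In clusters 4, 6 and 9, 45 of 59 CpG-rich promoters belonged to genes without a region (76.3%), against 33 of 108 (30.6%) in the rest. That grouping was made after the values had been seen and on the same states, so the contrast follows in part from it. These states are those of the gene ends. Among the 33, the promoters of ZNF358, ZNF558, ZNF599, ZNF225, ZNF444, ZNF749, ZNF329 and ZNF324B lie further in and carried a listed region themselves. That of ZNF749 had 3.40 untreated and 5.39 lactate per M, and that of ZNF329 was listed in the lactate library alone.

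Clusters 4, 6 and 9 differed among themselves in this. Cluster 4 was CpG-poor, with a median CpG ratio of 0.438 over 29 promoters and 0.436 in the 23 of genes without a region. Clusters 6 and 9 were CpG-rich, with medians of 0.782 and 0.849, and their promoters of genes without a region had 0.781 and 0.850. The mostly open cluster 11 had 0.825. Some promoters held a stretch of 50 bases that also occurs in a coding promoter at another place. It was found in 1 of the 109 promoters of zinc finger genes without a region (ZNF69). Among the 98 of genes open in both there were 3 (ZNF431, ZNF700 and ZNF814). For ZNF814 the libraries listed regions at opposite ends of the gene, and none within 1 kb of its listed start. These 4 genes were named after their values were seen. Promoters whose windows overlap on the chromosome, as those of divergent neighbours do, were not counted as copies of each other. Copies outside coding promoters were not searched, and the part of mappability and of copy number in CAL27 was not tested.

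**Figure D2:**
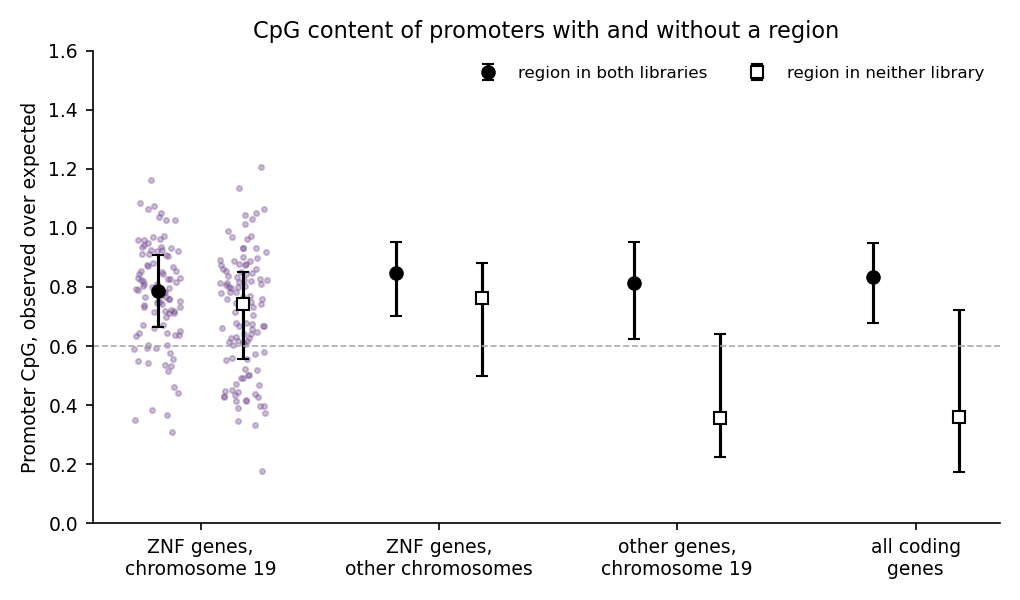
CpG ratio of promoters (vertical axis, observed over expected) for genes with a region in both libraries (filled circles) or in neither (open squares), with medians and quartiles as symbols and bars. Small points are single promoters of the zinc finger genes of chromosome 19, the dashed line marks 0.6, and the zinc finger medians of 0.786 and 0.743 lie much closer together than those of all coding genes (0.833 and 0.359).

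Sequence motifs in the promoters were counted as exact matches on either strand. The ETS core CCGGAAG was in 97 of 216 zinc finger promoters (44.9%, 38.2 to 51.8), against 14.1% of all 15813 promoters and 33.2% (26.9 to 39.9) of the 214 ZNF promoters of other chromosomes. Genes open in both libraries carried it in 45.9% and genes without a region in 44.0%, while over all coding genes the shares were 19.1% and 4.60%. ZNF genes of other chromosomes without a region carried it in 23.7% of 38. The CCAAT box was in 54.2%, against 36.4% of all promoters and 43.0% of the ZNF promoters elsewhere. The TATA box TATAAA was in 5 of 216 (2.31%), against 9.75% and 4.21%, and the GC box GGGCGG in 67.1%, against 58.3% and 60.3%. The run CTACATT, searched for after the data had been seen, was in 15.3% (10.8 to 20.8), against 2.22% of all promoters and 4.21% of the ZNF promoters elsewhere.

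The remaining motifs were each in at most 10.6% of the zinc finger promoters. The CREB core TGACGT stood at 10.6% against 9.64% of all promoters, and the NRF1 core GCGCATG at 5.56% against 5.88%. The YY1 core AAGATGG stood at 7.87% against 6.36% and the ZNF143 core ACTACAA at 5.09% against 3.14%. In the same order, the ZNF promoters elsewhere had 11.2%, 11.7%, 6.07% and 6.07%. By state, TGACGT was in 17 of 98 zinc finger promoters of genes open in both libraries (17.3%, 10.4 to 26.3). It was in 5 of 109 of genes without a region (4.59%, 1.51 to 10.4). The neighbours from ZNF266 to ZNF562 in cluster 2 all carried it, and the intervals take promoters as independent. Over all coding genes TGACGT stood at 11.6% and 6.05%, and over the ZNF genes elsewhere at 13.1% of 160 and 5.26% of 38. ACTACAA was in 8.16% and 2.75% of the zinc finger promoters by the same states. A match describes letters in a window and shows no binding.

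Most regions at gene ends sat at the start of the gene. Of the 216 genes with a known strand, 94 had the annotated start open in both libraries, 7 had a lactate-only and 3 an untreated-only region there, and 112 (51.9%) had none. Over all coding genes with a known strand the share with none was 33.8%. A total of 15 of the 216 had a region at the far end, and 3 of them (ZNF565, ZNF574 and ZNF580) had none at the annotated start. For each of these 3, both libraries listed a region within 1 kb of a listed start elsewhere in the gene. In 92 genes the summits of the tallest shared region lay within 1 kb of the start in both libraries. The median summit was 49 bp upstream of the start in the untreated and 59 bp upstream in the lactate library, and the summits of the 2 libraries lay 21 bp apart in the median, with 80 of the 92 within 100 bp.

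**Figure D3:**
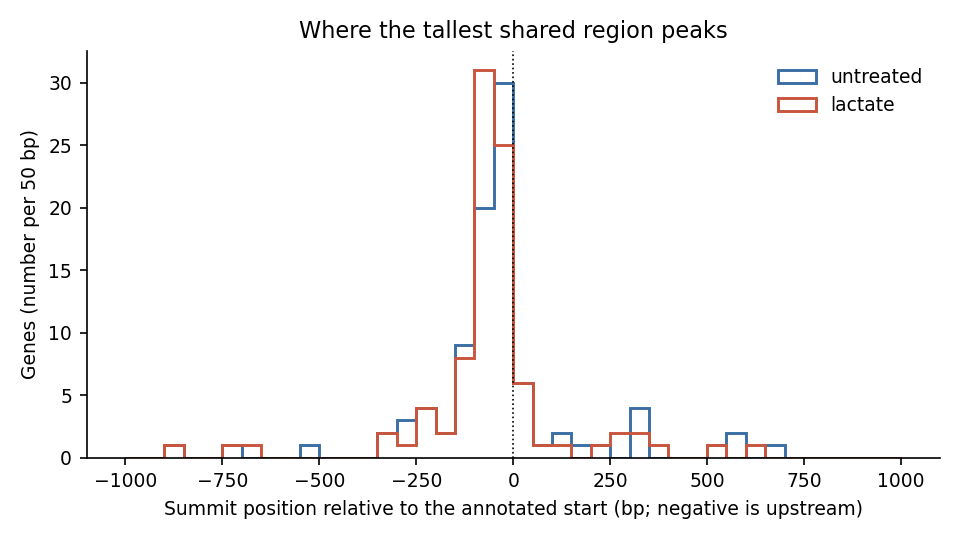
Distance of the summit from the annotated start in bp (horizontal axis, negative upstream) for the 92 zinc finger genes whose tallest shared region peaks within 1 kb of the start, as gene numbers per 50 bp (vertical axis). Both libraries peak just upstream of the start, with 71 untreated and 74 lactate summits within 200 bp of it.

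Some genes without a region at the ends were open at an inner start. The promoter table had entries for 109 genes without a region at either end. Of these, 11 had a region within 1 kb of a listed start inside the gene. They were ZNF358, ZNF558, ZNF43, ZNF536, ZNF599, ZNF225, ZNF112, ZNF444, ZNF749, ZNF329 and ZNF324B. For all but ZNF558, ZNF536 and ZNF112 this was the only listed start, and so the one whose promoter was used above. With any listed start counted, 100 of 216 genes (46.3%) were without a region, against 30.8% of all coding genes.

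At the shared gene ends, levels were higher in the lactate library almost throughout, as they were over all genes. A merged region with summits of both libraries overlapped an end of 110 zinc finger genes, at 108 distinct places, since ZNF490 and ZNF791 share one and ZNF324 and ZNF446 another. ZNF507 and ZNF814 are not among them, while ZNF302 is, as its merged region reaches the window by the untreated part. Untreated levels ran from 0.438 to 23.6 per M (median 1.89) and lactate levels from 0.584 to 41.1 per M (median 3.47). The lactate level was above the untreated one at 108 of the 110, against 96.8% of all coding genes, and at least 2 times as high at 50 (45.5%), against 39.1%. The median ratio was 1.90, beside 1.84 (quartiles 1.48 to 2.25) over all coding genes and 1.97 over ZNF genes of other chromosomes. All 3 medians lie within those quartiles. Relative to regions with equal summit tags, the median was 1.09 (quartiles 0.917 to 1.27) for the zinc finger genes, 1.03 for all coding genes and 1.09 for the ZNF genes elsewhere.

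**Figure D4:**
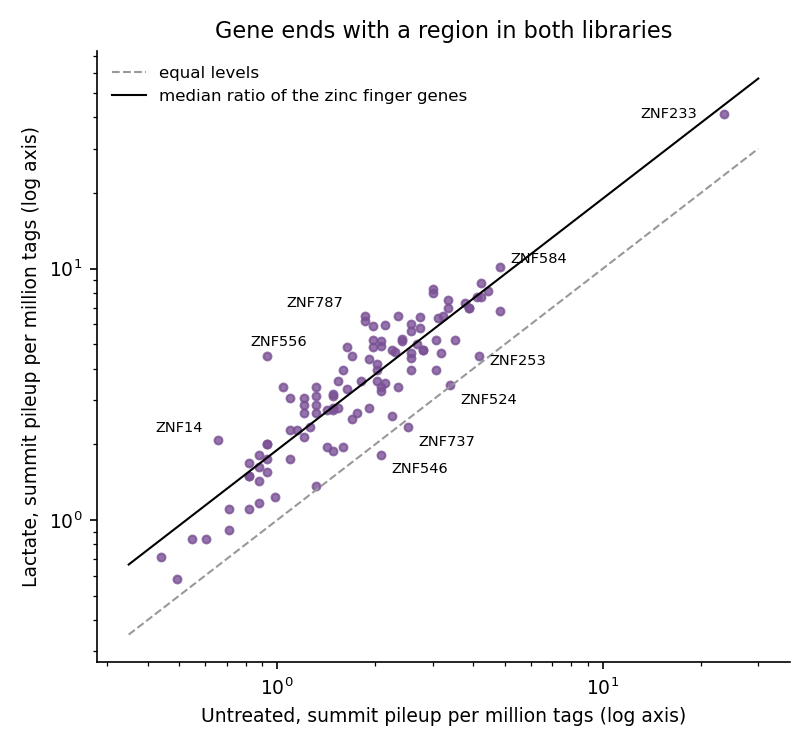
Lactate level (vertical axis) against untreated level (horizontal axis), both as summit pileup per M tags on log axes, for the 110 zinc finger genes with a shared region, each a point. The solid line marks the median ratio of 1.90 and the dashed line equal levels, and 108 points lie above the dashed line.

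Single genes are given below by their relative ratio, the lactate over untreated ratio divided by the median of all shared regions of equal summit tags, with an exact conditional Poisson interval. Of the 105 zinc finger genes with at least 30 tags, 8 reached a relative ratio of at least 1.5, where 10.9% of all coding genes did, and 6 had one of at most 0.667, where 6.15% of all coding genes did. Neither share stands above the background.

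ZNF556, in the open cluster 1, had the highest relative ratio. Its start (chr19:2866945-2867517) had 17 untreated and 69 lactate tags, levels of 0.932 and 4.48 per M, with a relative ratio of 2.71 (1.57 to 4.91). The next by size was ZNF14 in cluster 4, with levels of 0.658 and 2.08 and a relative ratio of 1.90 (0.955 to 4.06), from 12 and 32 tags. ZNF549 in cluster 11 had 1.04 and 3.38 per M and 1.85 (1.07 to 3.31). The interval of ZNF14 includes 1 and that of ZNF549 does not.

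ZNF787 (chr19:56121124-56122060) had 34 untreated and 100 lactate tags, 1.86 and 6.49 per M, which is a relative ratio of 1.84 (1.23 to 2.80). ZNF714, one of 7 open genes of cluster 4, had 1.86 and 6.17 per M and 1.78 (1.19 to 2.71). ZNF772 stood at 1.63 (1.05 to 2.57) and ZNF653 at 1.61 (1.08 to 2.44), the latter at a region that also reaches the end of ECSIT. ZNF846, at 1.59 (0.922 to 2.83), was just inside 1.5 and ZNF555, at 1.47, just outside.

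ZNF546, in cluster 7, had the lowest relative ratio and was one of 2 genes with a lower level in the lactate library. At its start (chr19:39996380-39997497) 38 untreated and 28 lactate tags gave 2.08 and 1.82 per M, a ratio of 0.873 and relative to like regions 0.497 (0.294 to 0.832). ZNF737 in cluster 4 was the other, with 2.52 and 2.34 per M and 0.527 (0.331 to 0.833), at a narrow region of the kind described further on. ZNF524 had nearly equal levels of 3.40 and 3.44 and relative to like regions 0.544 (0.370 to 0.798), at a region shared with the end of FIZ1. ZNF253, whose region lies at its upper-coordinate end, had 4.16 and 4.48 and 0.567 (0.404 to 0.797).

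The intervals of the remaining low ones include 1. They were ZNF559 (0.625), ZNF576 (0.657, just inside the threshold of 0.667), ZNF473 (0.693, just outside), which encodes a component of histone pre-mRNA 3' end processing, and ZNF221 (0.721). The regions of ZNF576 and ZNF473 also reach the ends of IRGQ and VRK3. In all, 10 of the 110 shared regions also reached the end of a coding gene that is not among the 246.

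**Figure D5:**
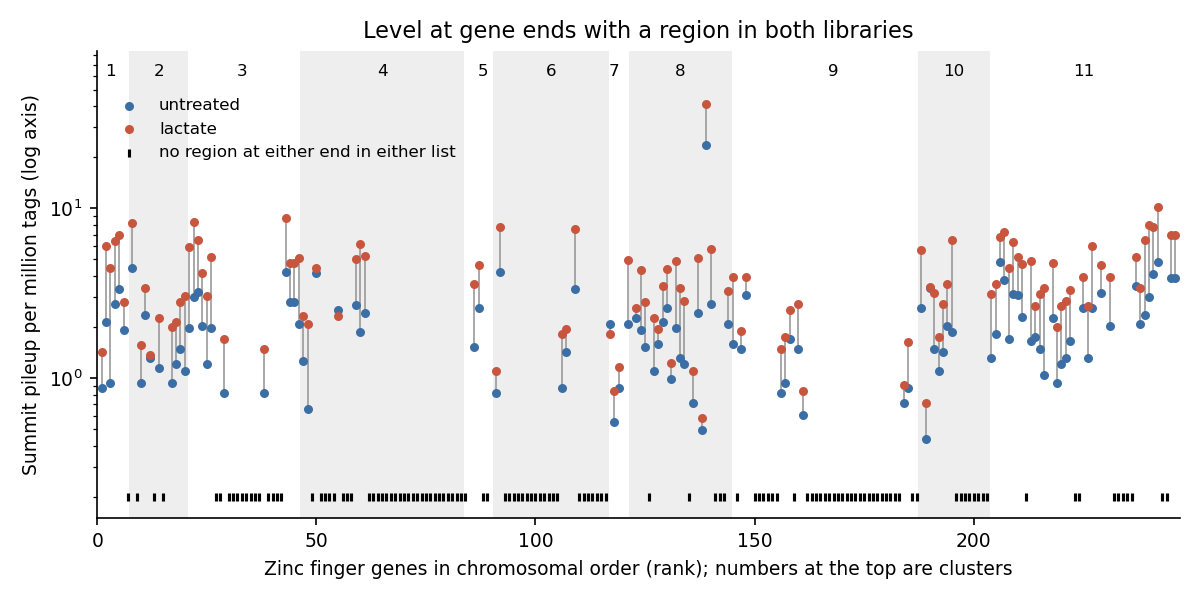
Level at gene ends with a region in both libraries (vertical axis, summit pileup per M tags, log axis) for the 246 zinc finger genes in chromosomal order (horizontal axis), with lines joining the 2 libraries, shaded bands for alternate clusters and ticks at the bottom for genes with a region in neither. Lactate values lie above untreated ones at 108 of 110 genes, and the highest pair is ZNF233, at 23.6 and 41.1 per M.

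The most accessible genes were spread over several clusters. The highest untreated level was listed for ZNF233 in cluster 8, with 430 untreated and 633 lactate tags, but this is a region of 223 bp with a single summit (chr19:44259376-44259598). Single-summit regions of 218 to 226 bp formed 17.3% of the untreated and 16.1% of the lactate list, and 3 of the 110 genes, ZNF233, ZNF737 and ZNF563, took their level in both libraries from such a region, as did ZNF253 in the lactate library alone. The next were ZNF460 (4.82 and 6.75 per M) and ZNF584 (4.82 and 10.1) in cluster 11, ZNF414 in cluster 2 (4.44 and 8.18), ZNF146 in cluster 6 (4.22 and 7.73) and ZNF564 in cluster 3 (4.22 and 8.77). ZNF146 encodes a protein made of fingers alone, with no KRAB domain. The relative ratio of ZNF460 was 0.722 (0.538 to 0.971), and the intervals of the other 4 include 1.

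The open genes of cluster 9 had low levels. Its 7 shared regions had median levels of 0.877 untreated and 1.62 lactate, against 2.27 and 4.64 in the 30 of cluster 11, and its highest was ZNF616 with 1.70 and 2.53. Cluster 4 was different, with medians of 2.41 and 4.48 over 7 genes, and ZNF253 at its top, whose lactate region is narrow. Cluster 7 had 0.877 and 1.17 over 3 genes. The highest of the other clusters were ZNF77 (3.34 and 6.95) in cluster 1, ZNF181 (2.58 and 4.61) in cluster 5 and ZNF524 in cluster 10. Between clusters with 5 or more shared regions, the median ratio ran from 1.74 in cluster 8 to 2.35 in cluster 1, and in every one of them it was above 1.

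Lactate-only regions were listed for 7 zinc finger genes (2.85%, 1.15 to 5.77), against 6.09% of all coding genes. Untreated-only regions were listed for 2 (0.813%), against 0.836%. The lactate list is the longer one, and with both lists at equal length the numbers were 4 lactate-only and 5 untreated-only by fold enrichment and 5 of each by −log10 p, so the excess of lactate-only genes did not hold at equal length. Among the 7, ZNF426 had 17 lactate tags at its start (chr19:9538488-9538957, 1.10 per M, fold enrichment 6.43 in the authors' list). The nearest untreated region to it lay 1064 bp away, with 15 tags. ZNF587B had 16 tags (chr19:57829994-57830402, fold 7.80), ZNF175 had 14 (chr19:51571042-51571361, fold 7.52), ZNF875 had 11 (fold 3.19) and ZNF792 had 7 (fold 3.45), all at the start. ZNF875 had regions in both libraries at inner listed starts, the tallest at 2.69 and 4.87 per M. These are weak regions, with levels of 0.455 to 1.10 per M, where the untreated list begins at 0.329.

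The remaining lactate regions lay away from the start. That of ZNF575 (chr19:43529628-43529912) had 58 tags, 3.77 per M, and touched the outer edge of the window upstream, where the nearest untreated region was 2079 bp away. The listed start of ZNF575 lies further in and carried regions in both libraries, the tallest at 1.92 and 3.31 per M. That of ZNF574 lay at the far end, with 15 tags, while its inner start carried a region in both libraries, at 3.34 and 8.64 per M. Of the untreated genes, ZNF302 is a case of the window, since a lactate region with 55 tags overlapped the untreated one with 28 just outside it. The untreated region of ZNF550 (chr19:57560253-57560494, 22 tags) lay 167 bp from a taller lactate region with 62 tags. Both genes thus had a lactate region close by.

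Within the gene bodies, away from the ends, accessible regions were rare. The union of the bodies of the 246 genes, 6.53 Mb, held 78 untreated and 95 lactate regions, 11.9 and 14.6 per Mb. Over all coding genes the density was 32.6 and 41.3 per Mb, over other genes of chromosome 19 it was 43.7 and 60.2, and over ZNF genes of other chromosomes 26.4 and 32.1. Merged over the libraries there were 96 regions, of which 73 were shared, 18 were lactate-only and 5 untreated-only. Narrow regions made up 28.2% of the untreated and 28.4% of the lactate body regions, against 18.3% and 16.8% over all coding genes. Of the 246 genes, 67 had a body region in either library and 93 had none at the ends or in the body.

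Of the 96 body regions, 23 lay within 1 kb of a listed start of the same gene. They include some of the tallest, at ZNF574, at ZNF558 (chr19:8831998-8833193, 2.63 untreated and 8.25 lactate per M, relative ratio 1.62, a region that also reaches the end of MBD3L1), at ZNF846 (2.58 and 6.62) and at ZNF444 (3.23 and 5.71). The tallest of all was a narrow region within ZNF845 (9.15 and 17.2 per M), a gene of cluster 9 without a region at its ends. The next was a narrow region within ZNF14 (6.25 and 16.0 per M). Neither of these lay at a listed start. ZNF536, a regulator of neuronal differentiation, had the most, with 5 untreated and 7 lactate regions and none at its ends. It was followed by ZNF875 with 4 and 4, ZNF507 with 3 and 4, ZNF114 with 2 and 4, and ZNF444 with 2 and 3. The median ratio at the 73 shared body regions was 1.60, close to the 1.63 over all genes.

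The genes for partners of these proteins were mostly open in both libraries. Of 30 genes of the silencing pathway, 28 were open in both, against 61.8% of all coding genes. CHD3, a remodelling ATPase, had a lactate-only region (1.17 per M). UHRF1, which brings DNMT1 to replicated DNA, had none at its ends and 3 untreated and 5 lactate regions in its body. All 28 had a higher lactate level, as 96.8% of all coding genes did, with a median ratio of 1.73 beside 1.84 and a median relative ratio of 0.964 beside 1.03 over all coding genes. TRIM28, the co-repressor that KRAB domains bind, lies on chromosome 19 itself, distal to cluster 11. It had 67 untreated and 136 lactate tags, 3.67 and 8.83 per M, and relative to like regions 1.24 (0.919 to 1.69).

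SETDB1 had 2.25 and 2.99 per M and relative to like regions 0.748 (0.480 to 1.17). Of the HP1 genes, CBX5 had 0.677 (0.527 to 0.871) and CBX3 had 0.838 (0.610 to 1.16), and CBX1 had levels of 2.47 and 4.61 per M. Past 1.5 either way stood DNMT3B at 1.58 (0.817 to 3.22), SUV39H1 at 1.56 (0.932 to 2.71), ATRX at 1.62 from 26 tags in all, and SUV39H2 at 0.657 (0.356 to 1.21), all with intervals that include 1. Among the zinc finger genes, ZNF274, known to bring SETDB1 to the 3' ends of other zinc finger genes, had 3.51 and 5.19 per M and 0.781 (0.555 to 1.10). ZNF224, a TRIM28-dependent repressor in cluster 8, had 1.21 and 2.86 and 1.35 (0.792 to 2.37).

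The untreated library held 18248413 tags and 98152 regions and the lactate library 15401276 tags and 122399 regions on the chromosomes used. Of 10 squamous epithelial markers, 8 were open in both libraries, among them KRT5, KRT17, EPCAM and CDH1, while TP63 and KRT14 had none. TP63 held 17 untreated and 22 lactate regions in its body. Of 5 endothelial markers none had one at an end. Regions in both libraries were also listed for 3 of 6 fibroblast, 2 of 6 leukocyte and 2 of 5 neuronal markers. Over all coding genes 61.8% were open in both.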

How the data were processed

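ATAC-seq of CAL27 cells was analysed from 2 deposited peak lists, 1 library per treatment label. Per the submitters' processing notes, fastp 0.20.0, BWA 0.7.12, MACS2 2.1.0 and hg38 were used, while the file headers name MACS 2.2.7.1. The authors called peaks on single libraries with no control at a q-value threshold of 0.05, shifting tags by 100 bp and extending them to 200 bp, per the file headers, which name alignment files marked uni and dedup. The deposited pileup is a signal, the number of extended tags over a summit, not scaled for depth. The deposited fold enrichment is a ratio, pileup over local background. It is the authors' own value and served only to rank or filter. Start, end, length and summit were deposited in bp. The stricter threshold used a −log10 p recomputed from the deposited pileup and fold.

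Regions of both lists that overlapped by at least 1 bp were merged, and for each library the tallest summit was scaled to 1000000 total tags. A gene took its shared gene-end region with the most tags of both libraries. The relative ratio used 20 bins of summit tags. Genes came from RefSeq (GRCh38.p14), and strand and starts from its promoter table. Python 3.11.15, numpy 2.4.6, scipy 1.17.1 and pandas 2.3.3 were used, and merging, ratios and intervals were tested on simulated data. The depth was 18248413 untreated and 15401276 lactate tags. Protein sequences were not used here, so fingers and KRAB domains were not counted.

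Named genes are all with a region in 1 library alone, the 8 highest and 8 lowest relative ratios with at least 30 tags, the 6 highest untreated levels, the 5 with most body regions and the highest of each cluster, with exceptions marked in the text. The members and lists were chosen with earlier results of these data known. Alternatives changed the threshold, list length, window, end, widths, scaling and merging.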

Additional observations from a re-analysis of the deposited data

How the results depend on the processing

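No paired analysis was possible because a single library stands behind each label. Of 53 alternative values, 41 stayed within 1.5 times a count or within the counting error of a share or ratio and 12 moved further, and in none did the median ratio fall below 1. The number of zinc finger genes without a region ran from 122 to 132 of 246 in the settings that used all of them, and the share stayed above that of all coding genes where both were computed, with 53.7% against 35.8% at a −log10 p of at least 7 and 49.6% against 24.7% with a window of 2 kb. The small numbers in 1 library alone depended on the setting. With lists of equal length by fold enrichment, 4 genes were in the lactate and 5 in the untreated library alone, and ranked by −log10 p there were 5 of each, so that the excess of 7 over 2 was turned or lost. The untreated number was 0 with windows of 500 bp or 2 kb, with the summit inside the window and with any listed start, and 4 without narrow regions. The median ratio of 1.90 became 1.97 at a −log10 p of at least 7 and with any listed start, 2.01 at the annotated start alone, and 1.15 when scaled by the median of all shared regions, which divides by 1 number and changes no order. The choices of any listed start, of CpG ratios of 0.5 and 0.75, of starts at the outer gene end, of copies at another place, and of CTACATT were made after seeing the data, and the CpG-rich share without a region was 46.5% and 45.2% at those ratios. No pileup under 6 untreated or 5 lactate tags was listed, so a missing region is a statement on the list. Its cause was not tested.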
